A study of Mus musculus with 8 samples.

Results

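The genes described here are 8 genes of phosphate handling and mineral formation, *Alpl*, *Phospho1*, *Enpp1*, *Ank*, *Phex*, *Slc20a1*, *Slc20a2* and *Sparc*. They were chosen by name, as phosphatases, pyrophosphate and phosphate handling genes plus a mineral-binding matrix protein, and they are 8 of the 23358 gene rows measured by RNA-seq in mouse incisor tissue. All 8 were present and all 8 passed the filter on low values (1 RPKM or more in 2 or more libraries), as did 14148 genes in all.

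The study removed *Med1*, a subunit of the Mediator complex that links enhancers to RNA polymerase, from epithelial cells of C57BL/6 mice. *Med1* conditional knockout mice (*Med1* cKO) carried loxP sites around exons 8 to 10 of *Med1* and a Cre driven by the keratin 14 promoter, which is active in dental and in skin epithelium. The controls (Ctrl) were littermates without Cre. Mice were 4 weeks old, 2 litters were used, and tissue of several mice entered a preparation. From the cervical loop, the epithelial stem cell niche at the base of the continuously growing mouse incisor, the head region with the stem cells (CLH) and the tail region with their progeny (CLT) were dissected. Each of the 4 groups (Ctrl CLH, cKO CLH, Ctrl CLT, cKO CLT) has 2 libraries. The study describes them as biological duplicates from 2 litters, each a pool of cervical loops, and the labels do not say which library came from which litter. The values are RPKM, read counts divided by gene length and by library depth, so levels can be compared between genes.

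As background, mineral forms where phosphate is released and where pyrophosphate, which blocks crystal growth, is removed. Tissue-nonspecific alkaline phosphatase (*Alpl*) cleaves pyrophosphate to phosphate at the cell surface, PHOSPHO1 frees phosphate inside matrix vesicles, ENPP1 makes pyrophosphate outside the cell and ANK supports its supply, and the sodium-phosphate cotransporters PiT-1 (*Slc20a1*) and PiT-2 (*Slc20a2*) carry phosphate into cells. PHEX is a cell surface endopeptidase of osteoblasts, osteocytes and odontoblasts whose loss causes X-linked hypophosphatemia, and SPARC (osteonectin) is a collagen- and calcium-binding matrix protein. In teeth, alkaline phosphatase is known from odontoblasts and from the stratum intermedium beside the ameloblasts.

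The region upstream of the start site is shown for 4 members, because *Alpl* and *Phex* had the 2 lowest CLT values relative to Ctrl, *Slc20a1* differed less and *Sparc* least among the genes that did not overlap. Each line gives the 250 bases before a RefSeq start of the gene on GRCm38.p6, 5′ to 3′ on the gene's strand, with the searched motifs in capitals. For *Alpl* and *Slc20a1* RefSeq had 2 such windows each, and only the window nearest the 5′ end of the gene in the deposited data was used. The positions are chr4:137796385-137796634 (minus strand) for *Alpl*, chrX:157415287-157415536 (minus) for *Phex*, chr2:129198523-129198772 (plus) for *Slc20a1* and chr11:55420081-55420330 (minus) for *Sparc*.
Alpl: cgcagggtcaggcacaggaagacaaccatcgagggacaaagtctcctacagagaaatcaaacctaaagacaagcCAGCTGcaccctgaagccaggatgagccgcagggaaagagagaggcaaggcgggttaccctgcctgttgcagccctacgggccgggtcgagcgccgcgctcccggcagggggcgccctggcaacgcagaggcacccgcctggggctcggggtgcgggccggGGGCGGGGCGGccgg
Phex: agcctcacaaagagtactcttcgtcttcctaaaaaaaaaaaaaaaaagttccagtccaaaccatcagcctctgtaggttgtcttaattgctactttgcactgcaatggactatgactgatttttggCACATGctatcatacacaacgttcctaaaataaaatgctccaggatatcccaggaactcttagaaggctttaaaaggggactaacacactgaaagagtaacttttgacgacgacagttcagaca
Slc20a1: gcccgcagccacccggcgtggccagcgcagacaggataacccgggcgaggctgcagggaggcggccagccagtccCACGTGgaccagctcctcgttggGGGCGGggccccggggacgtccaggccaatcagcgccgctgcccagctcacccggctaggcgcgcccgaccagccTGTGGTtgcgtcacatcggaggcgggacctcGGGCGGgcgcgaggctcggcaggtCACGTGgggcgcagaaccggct
Sparc: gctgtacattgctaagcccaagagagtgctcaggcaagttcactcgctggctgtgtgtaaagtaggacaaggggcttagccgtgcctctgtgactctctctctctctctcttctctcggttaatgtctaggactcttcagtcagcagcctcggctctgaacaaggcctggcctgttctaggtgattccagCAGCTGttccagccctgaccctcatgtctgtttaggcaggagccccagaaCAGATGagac
The motifs searched on both strands were a TATA box (TATAAA), a GC box (GGGCGG), a RUNX site (TGTGGT), an AP-1 site (TGANTCA), a homeobox site (TAATTA) and an E-box (CANNTG).

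*Alpl* and *Phex*, the pair that fell in CLT, had upstream regions of different composition, with 68.4% G and C for *Alpl* and 39.2% for *Phex*, against a median of 52.4% over 32851 windows in the RefSeq table. The *Alpl* window held 2 overlapping GC boxes, 15 and 10 bases before the start, and the *Phex* window held none. Windows were found for 7 of the 8 members, and *Slc20a2* was not among them. GC boxes were in 5 of the 7 member windows and in 32.7% of all windows. E-boxes were in 5 of the 7 and in 66.2% of all windows, and RUNX letters in 2 of the 7 (*Enpp1* and *Slc20a1*) and in 14.0% of all windows. An AP-1 match was in 1 of the 7 (*Phospho1*), with 6.75% of all windows, and neither TATAAA (12.4% of all windows) nor TAATTA (4.84%) was in any member's window. A match is only a match of letters.

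Library depth was similar, from 26591612 to 34420180 reads as the RPKM steps give it, of which 82.2% to 85.6% lay on genes, but 3 libraries stand apart in what tissue they show. The label names all 8 as dental epithelial cells, yet every library also holds odontoblast and bone cell genes in the CLH and Ctrl CLT groups, with *Dspp*, the main dentin matrix gene, between 423 and 654 RPKM there. In cKO CLT, *Dspp* was 0.145 and 0.174 RPKM. The 7 ameloblast markers (*Amelx*, *Ambn*, *Enam*, *Mmp20*, *Klk4*, *Amtn*, *Odam*) summed to 12503 to 14318 RPKM in the CLH libraries, 84584 and 37392 in Ctrl CLT 1 and 2, and 19.7 and 15.8 in cKO CLT. Bone genes *Ibsp* and *Mepe* were at 0 reads in both cKO CLT libraries. The 6 hair shaft and inner root sheath markers summed to 8509 and 9347 RPKM in cKO CLT, 2805 in Ctrl CLT 1, 12.6 in Ctrl CLT 2 and 8.46 to 12.8 in CLH. The 5 skeletal muscle markers summed to 1745 and 1921 RPKM in cKO CLT, 638 in Ctrl CLT 1 and 48.0 in Ctrl CLT 2, and melanocyte markers to 401 and 402, 130 and 8.62 in that order. The 6 basal epithelium markers (*Krt14*, *Krt5* and others) were present throughout, at 1358 and 857 RPKM in Ctrl CLT and 1739 and 1964 in the cKO CLT pair. Ctrl CLT 1 thus held hair, muscle and melanocyte genes, as the cKO CLT libraries did, and its genes differed more from those of its partner than in other groups, with 42.2% of genes over 1.5-fold apart against 4.3% to 5.3%. *Med1* itself was 7.71 and 9.12 RPKM in Ctrl CLH and 7.10 and 7.03 with cKO, and in CLT it was 4.83 and 8.71 in Ctrl and 9.15 and 8.96 with cKO. Its whole-gene level was therefore not lower in the CLT libraries labelled cKO, and as only some exons are deleted it does not check the genotype. The names cKO and Ctrl stand below for the libraries so labelled. In bulk tissue, fewer cells of a type and less RNA per cell cannot be told apart.

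**Figure D1:**
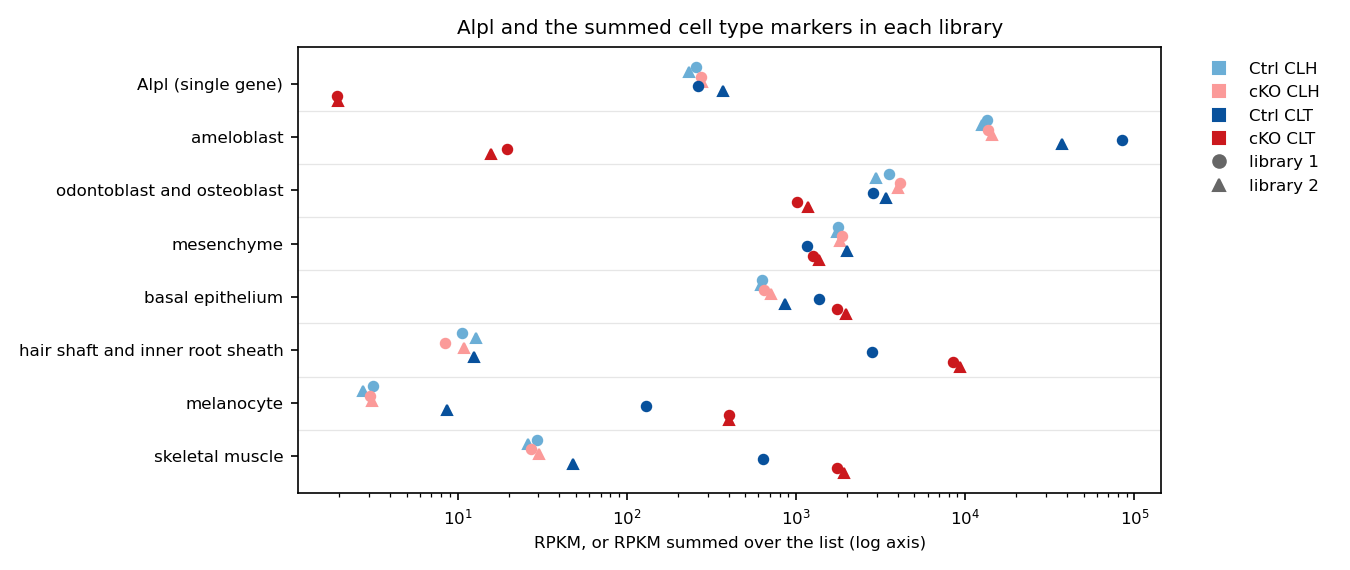
RPKM of *Alpl* (top row) and RPKM summed over each list of cell type markers (other rows) on a log axis. Circles are library 1 and triangles library 2 of each group. In cKO CLT (red), *Alpl* and the ameloblast sum lie below every other library, and the hair, melanocyte and muscle sums lie above, with Ctrl CLT 1 (dark blue circle) between.

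The comparison of cKO with Ctrl in CLT sets the mineralization genes of both genotypes side by side. These libraries also differ in the tissue they show, as given above, so genotype and the tissue collected cannot be told apart here. *Alpl* and *Phex* fell, *Slc20a2*, *Slc20a1*, *Enpp1* and *Sparc* were lower in both cKO libraries than in both Ctrl libraries without passing the test, and *Ank* and *Phospho1* overlapped between the groups. With limma, which tests log2(RPKM + 1) and borrows the spread across genes, 2 of the 8 members passed an adjusted p of 0.05, both lower. Among all 14148 genes 1.75 percent passed, and 1.68 percent passed as lower. Both cKO libraries lay below both Ctrl libraries for 6 of the 8 members and for 35.1 percent of all genes. The median log2 fold change was -0.84 over the members and -0.01 over all genes.

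*Alpl* (chr4:137741732-137796377 on mm10), the cell surface phosphatase, had the largest difference among the 8 members. Its RPKM was 264 and 369 in the Ctrl CLT libraries and 1.94 and 1.97 in the cKO CLT libraries. The cKO libraries, with 137 and 135 reads, lay far below both controls and next to each other. The mean was 316 ± 74.3 RPKM (SD, n = 2) in Ctrl and 1.95 ± 0.0176 (SD, n = 2) in cKO, so Ctrl was 162-fold higher, from 134-fold to 190-fold over the 4 pairings of libraries. The log2 fold change was -6.73 (SE 0.21, adjusted p = 0.0129, limma). On that scale a change of a gene with low values is understated, because 1 is added to each RPKM. Without Ctrl CLT 1 the log2 fold change was -6.97 and without Ctrl CLT 2 -6.49, and *Alpl* passed the test in each of the 4 fits that left out 1 library.

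*Phospho1* (chr11:95824500-95832140), the intracellular phosphatase of matrix vesicles, was the lowest member in Ctrl CLT. Its RPKM was 0.626 and 1.30 in Ctrl CLT, against 0.896 and 0.729 in cKO CLT, from 35 to 66 reads, and the groups overlapped. The log2 fold change was -0.09 (95% confidence interval -0.79 to 0.60, adjusted p = 0.802). In the GENCODE M21 annotation 89.6% of the exonic bases of *Phospho1* also lie in exons of *Zfp652* on the same strand or *Abi3* on the other, so its level is uncertain.

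The pyrophosphate genes did not share a direction. *Enpp1* (chr10:24641411-24712102), which makes pyrophosphate, was 12.0 and 22.7 RPKM in the Ctrl CLT pair and 9.14 and 8.21 in the cKO CLT pair. Both cKO libraries were below both controls, but the 2 controls were 1.88-fold apart. The log2 fold change was -0.86 (95% confidence interval -1.79 to 0.07, adjusted p = 0.155). *Ank* (chr15:27466677-27594907), which supports release of pyrophosphate from cells, was 20.5 and 31.6 RPKM in Ctrl CLT, against 30.1 and 30.0 in cKO CLT. Here the cKO libraries lay between the controls, and the log2 fold change was 0.23 (95% confidence interval -0.46 to 0.92, adjusted p = 0.528). Ctrl CLT 1 set the sign for *Ank*, whose log2 fold change was -0.07 without that library.

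The phosphate importers were both lower in cKO CLT. *Slc20a2* (chr8:22476700-22569616), the more abundant of the pair, was 88.8 and 149 RPKM in the Ctrl CLT pair and 31.6 and 33.8 in the cKO CLT pair, a ratio of means of 3.63 (2.63 to 4.70 over pairings). *Slc20a1* (chr2:129198773-129211612) was 19.9 and 22.0 RPKM in Ctrl CLT, against 11.5 and 11.6 in cKO CLT, a ratio of 1.82 (1.72 to 1.92). Neither pair of groups overlapped. Neither passed, at log2 fold changes of -1.78 (SE 0.29, adjusted p = 0.0637) for *Slc20a2* and -0.81 (SE 0.15, adjusted p = 0.069) for *Slc20a1*. Both passed when either Ctrl CLT library was left out, *Slc20a2* at -2.15 without Ctrl CLT 1 and -1.41 without Ctrl CLT 2, and *Slc20a1* at -0.88 and -0.74, in fits in which 9838 and 7369 of the 14148 genes passed. Without cKO CLT 1 or cKO CLT 2 neither passed, with adjusted p of 0.44 and 0.46 for *Slc20a2* and 0.47 and 0.48 for *Slc20a1*. Of the exonic bases of *Slc20a1*, 13.1% lie in exons of 2 genes on the other strand, and strand use in the counting is not given in the sources used here.

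*Phex* (chrX:157162075-157415286), the endopeptidase of mineralizing cells, was 14.4 and 29.4 RPKM in the Ctrl CLT pair and 0.359 and 0.234 in the cKO CLT pair. The cKO values rest on 63 and 40 reads and lay far below both controls, which were themselves 2.04-fold apart. The mean was 21.9 ± 10.6 RPKM (SD, n = 2) in Ctrl and 0.296 ± 0.0881 (SD, n = 2) in cKO, a ratio of 73.8 (40.1 to 125 over pairings). The log2 fold change was -4.06 (SE 0.38, adjusted p = 0.0426). It no longer passed when a cKO CLT library was left out, with adjusted p = 0.23 without cKO CLT 1 and 0.25 without cKO CLT 2, at log2 fold changes of -4.13 and -3.99. It passed without Ctrl CLT 1 at -4.55 and without Ctrl CLT 2 at -3.57.

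*Sparc* (chr11:55394501-55420080) was among the most abundant transcripts in every group. Its RPKM was 1149 and 1262 in Ctrl CLT, against 959 and 958 in cKO CLT, without overlap. The log2 fold change was -0.33 (95% confidence interval -0.83 to 0.17, adjusted p = 0.258). *Sparc* stood at percentile 99.9 of all genes in Ctrl CLT and 99.8 in cKO CLT, whereas *Alpl* went from percentile 99.4 to 50.8 and *Phex* from 86.6 to 37.0.

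**Figure D2:**
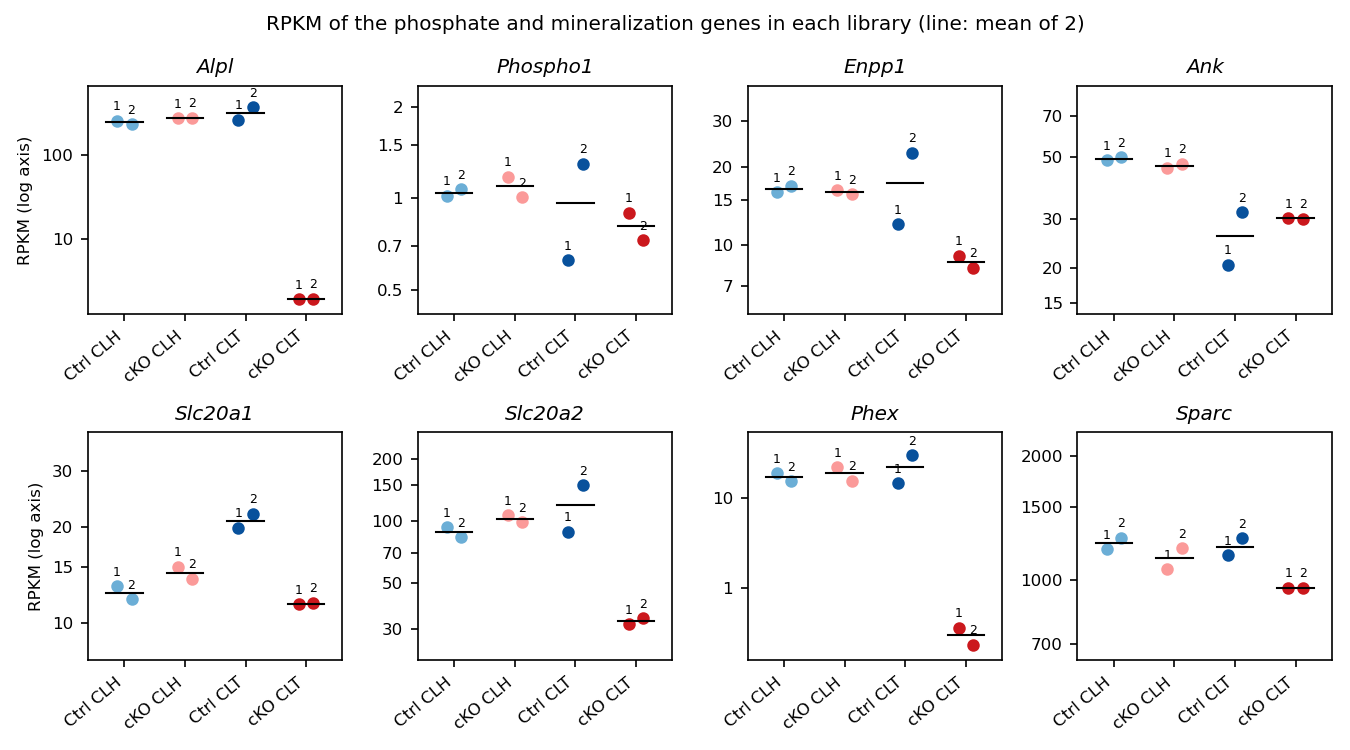
RPKM of each of the 8 genes in each library on log axes that differ between panels. Points are libraries 1 and 2 of a group and the line is their mean. *Alpl* and *Phex* lie at 1.94 to 1.97 and 0.234 to 0.359 RPKM in cKO CLT, away from the other 6 libraries, and the 2 Ctrl CLT libraries differ most for *Phospho1*, *Phex* and *Enpp1*.

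The marker lists did not all move alike between Ctrl CLT and cKO CLT. The ameloblast sum and the odontoblast and osteoblast sum were lower in both cKO libraries than in both Ctrl libraries. The stratum intermedium and mesenchyme sums overlapped between the groups. The odontoblast and osteoblast list summed to 2868 and 3403 RPKM in the Ctrl CLT pair and 1017 and 1174 in the cKO CLT pair, and of its 8 tested genes 5 fell. The sum that remained in cKO CLT was mostly type I collagen, since *Col1a2* was 639 and 700 RPKM and *Col1a1* 376 and 472, while *Sp7*, a transcription factor of osteoblasts, was 0.187 and 0.241. All 7 ameloblast markers fell. The stratum intermedium list (*Notch1*, *Hes1*, *Gja1*) summed to 468 and 769 RPKM in Ctrl CLT, against 613 and 562 in cKO CLT. *Gja1* made up 430 and 733 RPKM of the Ctrl sums and 552 and 500 of the cKO sums. Of the 3 genes 0 passed, with 1 (*Notch1*) at an unadjusted p under 0.05. *Notch1* was 13.2 and 6.89 RPKM in Ctrl CLT, against 32.0 and 36.1 in cKO CLT. The log2 fold change was 1.72 for *Notch1*, -0.095 for *Gja1* and -0.005 for *Hes1*. The mesenchyme list summed to 1164 and 2001 in Ctrl CLT, against 1267 and 1362 in cKO CLT, and there the collagen gene *Col3a1* made up 874 and 979 RPKM of the cKO sums. Of its 9 genes 0 passed, 6 had an unadjusted p under 0.05 (5 of them lower in cKO and *Col3a1* higher), and the median log2 fold change was -1.26. Values were -3.15 for *Lum*, -2.59 for *Prrx2*, -1.80 for *Pdgfra*, -1.49 for *Vim* and 0.91 for *Col3a1*. The part of these cell types in the member values was not tested.

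For each member, the 3 genes with the most similar pattern across the 8 libraries are given here. The genes with the highest Pearson r of log2(RPKM + 1) to *Alpl* were *Dspp*, *Cdh2* and *2010002N04Rik*, each at 0.999. For *Phex* they were *2610019F03Rik*, *Fam171b* and *Sulf1*, each at 0.998, and for *Slc20a2* they were *Sv2a* at 0.998 and *Dock4* and *Cnnm4* at 0.994. *Slc20a1* was closest to *Lnx2* (0.995), *Kcnn4* (0.981) and *Npl* (0.98). *Enpp1* was closest to *8430410K20Rik* (0.997), *Trim12c* and *Enah* (0.996 each), and *Ank* to *Fez1* (0.996), *Nup37* and *Ipo9* (0.995 each). *Phospho1* was closest to *Ap3m1*, *Papolg* and *Wwtr1* (0.99 each), and *Sparc*, which varied least, had the weakest best match, *Kif13a* (0.979), then *Pts* (0.976) and *Idua* (0.974). These are descriptions over 8 libraries of 4 groups, in which the gap between cKO CLT and the rest carries much of each r for genes that have it.

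The same contrast in CLH asks whether the stem cell region differs already. None of the 8 members passed with limma, and of all 14148 genes 0 percent passed, with 1027 at an unadjusted p under 0.05. Of the members, 0 had an unadjusted p under 0.05 in this fit and 2 in the voom fit of reads, in which 0 passed after adjustment. In the voom fit 1190 of all 14148 genes had an unadjusted p under 0.05. Both cKO CLH libraries were higher than both Ctrl CLH libraries for 3 of the 8 members, *Alpl*, *Slc20a1* and *Slc20a2*, as for 19.9 percent of all genes, and lower for 1, *Ank*, as for 18.8 percent of all genes.

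*Alpl* was 258 and 232 RPKM in Ctrl CLH, against 273 and 279.7 in cKO CLH, with a log2 fold change of 0.18 (95% confidence interval -0.04 to 0.39, adjusted p = 0.693). The 4 CLH libraries thus lay close together. *Slc20a2* was 93.4 and 83.5 RPKM in the Ctrl CLH pair and 107 and 98.4 in the cKO CLH pair (log2 fold change 0.21, interval -0.01 to 0.43, adjusted p = 0.691). *Slc20a1* was 13.1 and 11.9 RPKM in Ctrl CLH, against 15.0 and 13.8 in cKO CLH (0.19, interval -0.04 to 0.42, adjusted p = 0.691). These 3 had the largest fold changes among the members in CLH and had no overlap between the groups. *Phex* overlapped, at 18.8 and 15.2 RPKM in the Ctrl CLH pair and 21.8 and 15.4 in the cKO CLH pair (0.11, interval -0.41 to 0.62). *Phospho1* overlapped too, at 1.02 and 1.07 RPKM in Ctrl CLH, against 1.18 and 1.01 in cKO CLH (0.03, interval -0.16 to 0.22).

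*Enpp1* was 16.0 and 16.9 RPKM in the Ctrl CLH pair and 16.3 and 15.7 in the cKO CLH pair (log2 fold change -0.04, interval -0.22 to 0.14). *Ank* was 48.5 and 49.7 RPKM in Ctrl CLH, against 45.6 and 47.1 in cKO CLH (-0.08, interval -0.22 to 0.06). *Sparc* was 1189.8 and 1266 RPKM in the Ctrl CLH pair and 1062 and 1195 in the cKO CLH pair (-0.12, interval -0.47 to 0.23). Only *Ank* of these 3 was without overlap, and its cKO mean was 94.5% of the Ctrl mean.

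The difference between the 2 contrasts was tested directly, as an interaction across all 8 libraries. It passed for 4 of the 8 members, all with a lower cKO value relative to Ctrl in CLT than in CLH, while 17.6 percent of all genes passed and 9.58 percent passed in that direction. The difference in log2 fold change was -6.90 for *Alpl* (SE 0.23, adjusted p = 0.000155), -4.17 for *Phex* (SE 0.47, adjusted p = 0.00651), -1.99 for *Slc20a2* (SE 0.33, adjusted p = 0.0161) and -1.0 for *Slc20a1* (SE 0.15, adjusted p = 0.0131). Both importers passed here and neither passed within CLT. The interaction fit gives all 4 groups 1 spread per gene, although libraries differed most in Ctrl CLT, with 42.2% of genes over 1.5-fold apart. For *Slc20a1* the SE was 0.15 both here and in the CLT fit, so its call rests on that shared spread. The call for *Slc20a1* and *Slc20a2* was lost in each of the 6 fits that left out a library other than Ctrl CLT 1 or 2, with adjusted p of 0.067 to 0.093, and that for *Phex* was lost without Ctrl CLH 2 (0.053). For *Enpp1* the difference was -0.82 (interval -1.72 to 0.08), for *Ank* 0.31 (-0.33 to 0.95), for *Sparc* -0.21 (-0.60 to 0.19) and for *Phospho1* -0.13 (-0.79 to 0.54).

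**Figure D3:**
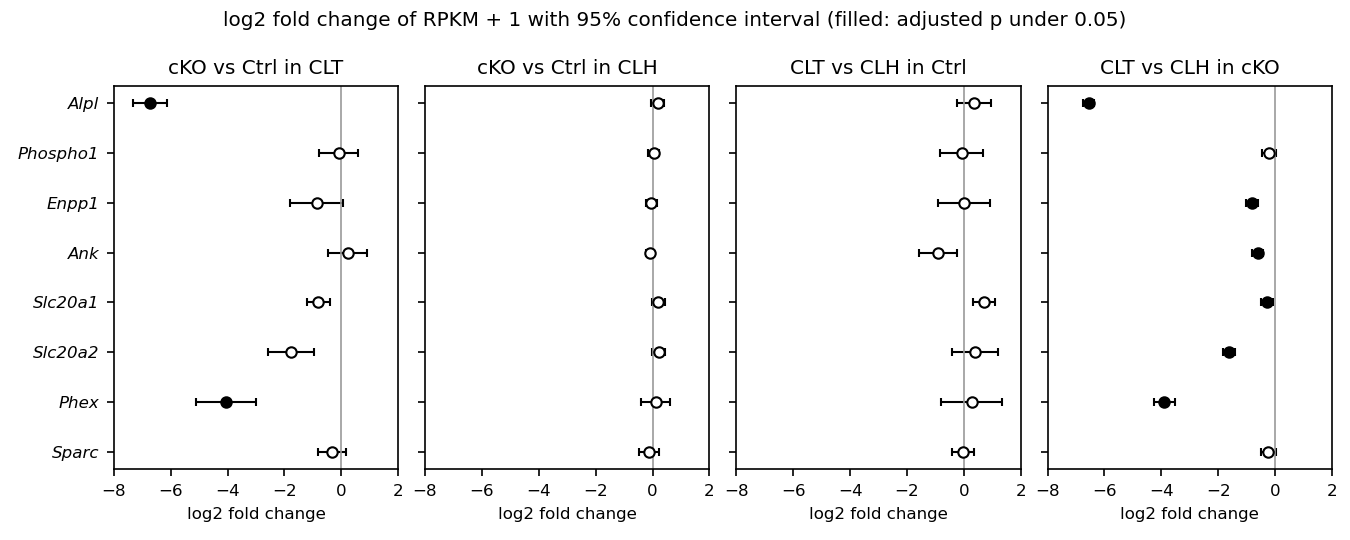
Log2 fold change of RPKM + 1 for each gene in each of 4 comparisons, with 95% confidence intervals from limma. Filled points passed an adjusted p of 0.05. *Alpl* and *Phex* are filled in both panels that hold the cKO CLT libraries, no point is filled in the panels for CLH genotype and for Ctrl region, and the comparisons share libraries.

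In control tissue, CLT was compared with CLH, the regions that the study describes as holding progeny and stem cells. Both regions held ameloblast and odontoblast genes, and Ctrl CLT 1 also held hair and muscle genes. Region and the tissue collected therefore cannot be told apart here. None of the 8 members passed with limma, 2 having an unadjusted p under 0.05, and the voom fit also gave 0 with 2 at an unadjusted p under 0.05. Of all 14148 genes, 1860 with limma and 1852 with voom had an unadjusted p under 0.05. Of all genes 0.00707 percent passed. Both Ctrl CLT libraries were higher than both Ctrl CLH libraries for 2 of the 8, *Alpl* and *Slc20a1*, and for 15.2 percent of all genes, and lower for 1 of the 8, *Ank*, and for 36.8 percent of all genes. The median log2 fold change of all genes was -0.13 here, and scaling by median of ratios moved it to 0.01, so values are to be read against that shift.

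*Ank* was 48.5 and 49.7 RPKM in Ctrl CLH and 20.5 and 31.6 in Ctrl CLT, a log2 difference of -0.92 (SE 0.24, adjusted p = 0.335). *Slc20a1* went the other way, from 13.1 and 11.9 to 19.9 and 22.0 RPKM (0.70, SE 0.14, adjusted p = 0.313). For both genes the libraries of the regions did not overlap, and neither gene passed. Without Ctrl CLT 1, the library with hair and muscle genes, *Ank* passed at -0.62 (adjusted p = 0.049), as did 468 of the 14148 genes. Without Ctrl CLT 2, 7537 of the 14148 genes passed and 4 members among them, *Ank* at -1.22, *Slc20a1* at 0.63, *Enpp1* at -0.42 and *Phospho1* at -0.33. Without either Ctrl CLH library 0 genes passed with limma, with 277 and 226 at an unadjusted p under 0.05. *Alpl* had a log2 fold change of 0.35 (interval -0.24 to 0.94), *Slc20a2* 0.38 (-0.43 to 1.18), *Phex* 0.27 (-0.79 to 1.33), *Enpp1* 0.01 (-0.91 to 0.93), *Phospho1* -0.08 (-0.84 to 0.68) and *Sparc* -0.03 (-0.41 to 0.35). The sign of *Sparc* turned to 0.15 with scaling by median of ratios and to 0.13 with quantile normalization. All 8 members were lower in Ctrl CLT 1 than in Ctrl CLT 2, as were 56.9% of all genes tested.

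In cKO tissue CLT was also compared with CLH. These libraries differ in the hair and ameloblast genes they hold, as given above, so region and the tissue collected cannot be told apart. All 8 members were lower in both cKO CLT libraries than in both cKO CLH libraries, as were 52.3 percent of all genes, and 6 of the 8 passed the test, against 74 percent of all genes, or 45.1 percent as lower. With so many genes passing, the size of a change says more than the call. The log2 fold change was -6.55 for *Alpl* (SE 0.08, adjusted p = 1.63e-10), -3.90 for *Phex* (SE 0.16), -1.62 for *Slc20a2* (SE 0.09), -0.81 for *Enpp1* (SE 0.09), -0.61 for *Ank* (SE 0.08) and -0.30 for *Slc20a1* (SE 0.09, adjusted p = 0.0169). The median of all genes was -0.18 and moved to 0.02 with scaling by median of ratios, and the genes called then split into 5270 higher and 4884 lower against 4084 and 6384. *Slc20a1*, at -0.09 under that scaling, no longer passed, nor did it without cKO CLH 1 (-0.24), cKO CLT 1 (-0.29) or cKO CLT 2 (-0.30). *Sparc* (-0.23, adjusted p = 0.0899) and *Phospho1* (-0.21, adjusted p = 0.113) did not pass. This comparison and that of genotypes in CLT share the cKO CLT libraries and are not independent of each other.

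*Ank* fell from CLH to CLT in cKO and was lower in both libraries of CLT than of CLH in Ctrl as well, at means of 64.8% of the CLH level in cKO and 53.0% in Ctrl. *Alpl* was at 129% of its CLH mean in Ctrl CLT and at 0.708% in cKO CLT. The ratio of the 2 genes that set phosphate against pyrophosphate outside the cell, *Alpl* over *Enpp1* in RPKM, was 16.1 and 13.7 in Ctrl CLH, 16.8 and 17.8 with cKO in CLH, 21.9 and 16.3 with Ctrl in CLT and 0.213 and 0.24 with cKO in CLT. *Alpl* thus exceeded *Enpp1* in 6 libraries and was below it in both cKO CLT libraries. The importers shifted less. *Slc20a2* over *Slc20a1* was 7.02 to 7.15 in all 4 CLH libraries, 4.46 in Ctrl CLT 1, 6.75 in Ctrl CLT 2, and 2.76 and 2.92 in the cKO CLT pair, and *Slc20a2* was the more abundant importer in every library. These ratios within a library do not depend on its scaling.

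**Figure D4:**
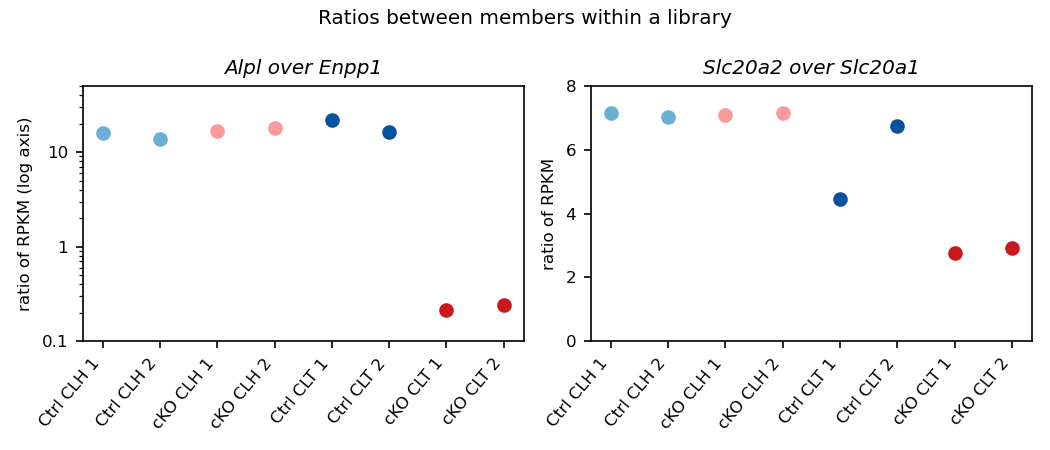
Ratio of RPKM between 2 members within each library, *Alpl* over *Enpp1* on a log axis (left) and *Slc20a2* over *Slc20a1* on a linear axis from 0 (right). Each point is 1 library. The left ratio is above 10 in 6 libraries and 0.213 and 0.24 in cKO CLT, and the right ratio is lowest in cKO CLT, with Ctrl CLT 1 next.

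By level per length, the order in Ctrl CLH was *Sparc*, *Alpl*, *Slc20a2*, *Ank*, *Phex*, *Enpp1*, *Slc20a1* and *Phospho1*, and it was the same in cKO CLH. Only the neighbours *Phex* and *Enpp1* overlapped between libraries there. In Ctrl CLT *Ank*, *Phex*, *Slc20a1* and *Enpp1* followed *Slc20a2*, and each of these 4 overlapped the next of them. In cKO CLT the order was *Sparc*, *Slc20a2*, *Ank*, *Slc20a1*, *Enpp1*, *Alpl*, *Phospho1* and *Phex*, with no overlap between neighbours, so that *Alpl* stood below *Ank*, *Slc20a1* and *Enpp1*, which it exceeded in the other groups.

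The wider pathway was described with 60 further genes in 8 lists, of which 46 passed the filter. These lists share genes with the marker lists above, among them *Bglap*, *Bglap2*, *Dmp1*, *Ibsp*, *Mepe*, *Col1a1*, *Col1a2* and *Col3a1*. The 2 sets of results are therefore not independent, and the lists were chosen with earlier results of these data known. In CLT, 6 of the 46 fell in cKO and 0 rose, where 1.75 percent of all genes passed. An unadjusted p under 0.05 was found for 31 of the 46 and for 5116 of all 14148 genes, and their median log2 fold change was -1.31 against -0.01 for all genes. The 6 were *Bglap* (osteocalcin), *Bglap2*, *Spp1* (osteopontin), *Dmp1*, *Fam20c* and *Acpt*. *Bglap* was 490 and 397 RPKM in the Ctrl CLT pair and 0.686 and 0.411 in the cKO CLT pair (log2 fold change -8.16, adjusted p = 0.00577), though *Bglap* and *Bglap2* (-4.10) are near-identical copies that reads may not tell apart. *Spp1*, a phosphorylated mineral-binding protein, was 52.2 and 185 RPKM in Ctrl CLT, against 0.839 and 0.531 in cKO CLT (-5.89, adjusted p = 0.0486). Most of the mineral-binding list thus passed, 3 of its 5 tested genes.

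The genes of systemic phosphate control that fell act in mineralizing cells. *Dmp1*, a dentin and bone matrix protein whose loss causes hypophosphatemic rickets, was 15.6 and 17.9 RPKM in the Ctrl CLT pair and 0.0517 and 0.0664 in the cKO CLT pair (log2 fold change -4.06, adjusted p = 0.0204). *Fam20c*, the kinase that phosphorylates secreted mineral-binding proteins, was 45.0 and 25.2 RPKM in Ctrl CLT, against 1.26 and 1.25 in cKO CLT (-3.95, adjusted p = 0.0365). *Acpt*, the enamel acid phosphatase also named *Acp4*, was 389.9 and 104 RPKM in the Ctrl CLT pair and 0.558 and 0.373 in the cKO CLT pair (-7.11, adjusted p = 0.0429), and it was the 1 of 4 other phosphatases that passed. All 3 were lower in each cKO library than in each Ctrl library.

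In the other lists 0 genes passed in CLT with limma, and voom called 0 of the 46. Of 3 phosphate transporters tested, *Xpr1*, the cell's phosphate exporter, had the smallest p, at 21.1 and 44.2 RPKM in Ctrl CLT, against 4.57 and 4.03 in cKO CLT (log2 fold change -2.58, adjusted p = 0.062). For the suppliers of PHOSPHO1 substrate it was *Enpp6*, a choline phosphodiesterase, at 4.61 and 13.9 RPKM in the Ctrl CLT pair and 0.0116 and 0.12 from 1 and 10 reads in cKO CLT (-3.10, adjusted p = 0.0646). Both were lower in each cKO library. The nucleotide and pyrophosphate enzymes had values of both signs, with a median of 0.25 over 8 genes, *Entpd3* at -1.69 and *Enpp3* at -1.32, and *Nt5e*, which releases phosphate from AMP outside the cell, was 9.78 and 5.26 RPKM in Ctrl CLT, against 22.3 and 21.3 in cKO CLT (1.47, adjusted p = 0.0761). *Anxa6*, a matrix vesicle annexin, was at -1.48 (adjusted p = 0.0582), and *Spock2*, a proteoglycan of the SPARC family, at -2.40 (adjusted p = 0.0521).

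**Figure D5:**
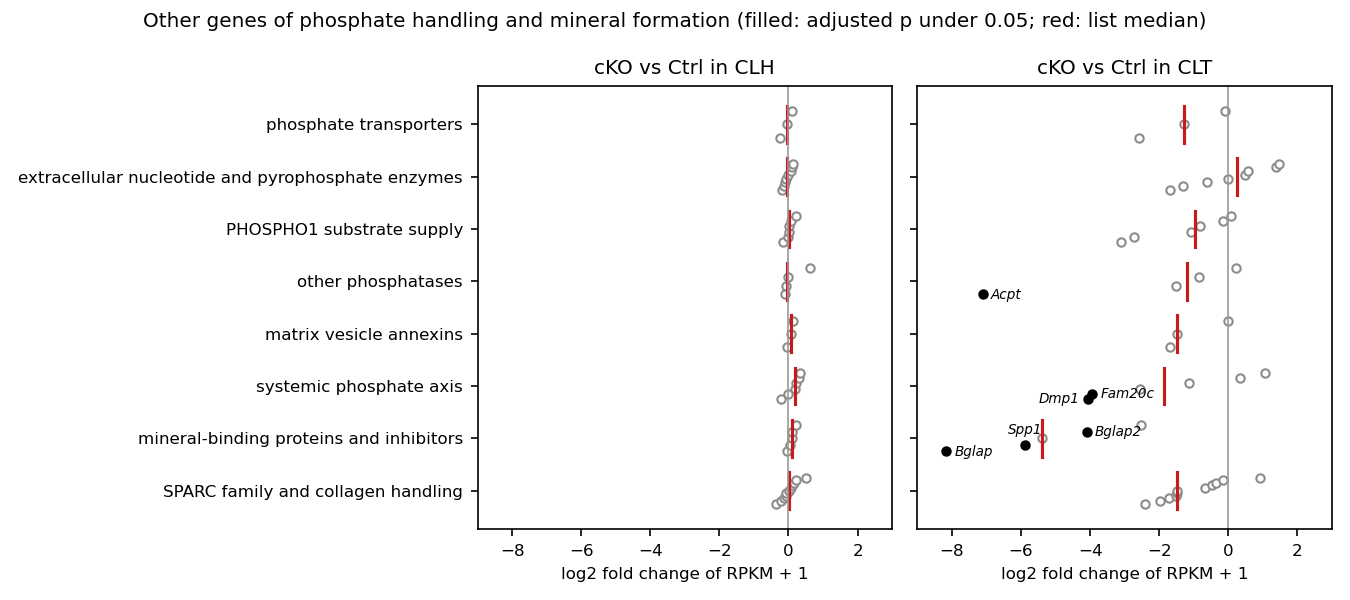
Log2 fold change of RPKM + 1 in cKO against Ctrl for the 46 tested genes of 8 lists, in CLH (left) and CLT (right). Each point is a gene, filled and named where the adjusted p was under 0.05, and red bars are list medians. In CLH the points lie near 0 and none is filled, and in CLT the lowest median is that of the mineral-binding list.

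In CLH 0 of the 46 passed with limma or voom, with 5 and 9 at an unadjusted p under 0.05, and their median log2 fold change was 0.02. Of all 14148 genes 1027 and 1190 had such a p. The gene with the smallest p in each list was *Slc34a2*, a sodium-phosphate cotransporter (-0.23), *Ppa1*, the cytosolic pyrophosphatase (-0.10), *Enpp6* (0.22), *Acpt* (0.61), *Anxa5* (0.12), *Fam20c* (0.32), *Mgp*, an inhibitor of calcification (0.10), and *Col1a1* (0.49), with adjusted p from 0.688 to 0.735. Between regions in Ctrl tissue 0 of the 46 passed with limma or voom, with 9 at an unadjusted p under 0.05 in each, against 1860 and 1852 of all genes. The corresponding genes were *Slc34a2* (2.91), *Ppa1* (-0.47), *Smpd3*, a neutral sphingomyelinase that frees phosphocholine (-1.77), *Acpt* (2.29), *Anxa6* (-0.60), *Dmp1* (-1.48), *Spp1* (-1.17) and *Smoc1* of the SPARC family (-1.19), with adjusted p from 0.217 to 0.485.

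Between regions in cKO tissue 40 of the 46 passed, 32 of them lower in CLT and 8 higher, where 74 percent of all genes passed. All 5 tested genes of the mineral-binding list fell, among them *Bglap* (log2 fold change -8.06), *Spp1* (-7.01), *Ibsp*, bone sialoprotein (-6.63), and *Bglap2* (-4.24). All 6 of the systemic phosphate list passed too, 4 lower and 2 higher. The lower were *Dmp1* (-5.53), *Fam20c* (-3.32), the FGF receptor gene *Fgfr1* (-3.07) and the parathyroid hormone receptor gene *Pth1r* (-1.92). *Vdr* (1.65) and *Galnt3* (0.83) were higher. All 11 of the SPARC and collagen list passed, 10 lower and 1 higher (*Col3a1*, 1.01). Among the lower were the collagen chaperone gene *Serpinh1* (-2.68), *Spock2* (-2.54), the collagen receptor gene *Ddr2* (-2.29) and *Col1a1* (-2.13). Of the PHOSPHO1 supply list 4 of 6 fell, *Enpp6* (-3.56), the choline kinase gene *Chka* (-3.19), *Smpd3* (-2.88) and the ethanolamine kinase gene *Etnk1* (-1.44). The nucleotide and pyrophosphate enzymes went both ways, *Nt5e* (1.6) and *Entpd2* (1.16) higher and *Entpd3* (-1.48) and *Enpp3* (-1.26) lower. The transporters did so as well, with *Slc34a2* at 1.84 and *Xpr1* at -1.13. Of the phosphatases *Acpt* (-5.43), *Acp5*, the osteoclast acid phosphatase (-1.51), and *Acp2* (-1.08) fell and *Acp1* (0.28) rose, and the annexin genes *Anxa5* (-2.42) and *Anxa6* (-2.05) fell.

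The interaction passed for 23 of the 46, 20 lower and 3 higher, against 17.6 percent of all genes. The 3 higher were *Nt5e* (1.67), *Ppa1* (0.59) and the collagen gene *Col3a1* (0.85). The 20 lower held all 5 genes of the mineral-binding list, from *Bglap* at -8.26 through *Spp1* (-5.84), *Ibsp* (-5.61) and *Bglap2* (-4.14) to *Mgp* at -2.64. They also held *Acpt* (-7.72), *Fam20c* (-4.27), *Dmp1* (-4.04), *Fgfr1* (-2.75), *Xpr1* (-2.69), *Enpp6* (-3.32), *Chka* (-2.80), *Anxa5* (-1.80), *Anxa6* (-1.45), *Spock2* (-2.49), *Serpinh1* (-2.12), *Col1a1* (-1.99) and the follistatin-like gene *Fstl1* (-1.51). The number of pathway genes that passed ranged over the alternatives from 0 to 38 in CLT and from 5 to 37 for the interaction.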

How the data were processed

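Bulk RNA-seq of CLH and CLT from Ctrl and *Med1* cKO incisors was measured in 8 libraries, 2 per group, assigned to groups by their titles. The authors deposited 1 table of RPKM per gene. The submitters' processing notes name FastQC 0.72, Trim Galore 0.4.3.1, STAR 2.6.0b-1, featureCounts 1.6.3, DESeq2 2.11.40.2 and mm10. The annotation, the strand setting and the total used for RPKM are not given in the sources used here, and 0 per-sample columns were left unused.

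RPKM values times gene length were whole multiples of 1 read (100.0% of the values checked, within 0.01 read), which gave reads and depth. Depth allowed 35 reads at the least for *Phospho1* and 40 for *Phex*. Genes with 1 RPKM or more in 2 or more libraries (14148) were tested on log2(RPKM + 1) with limma 3.58.1 (R 4.3.3, variance trend, libraries of the compared groups only, all 8 for the interaction), with Benjamini-Hochberg adjustment over all genes tested and a threshold of 0.05. All adjusted p-values in the text come from limma unless voom is named. An exact permutation test of 2 against 2 cannot go below 0.333, so none was used. The study's DESeq2 test, which needs counts, was not run, and the recovered reads were tested with voom only. The alternatives were a pseudocount of 0.1, no filter or a filter on the mean, median-of-ratios scaling, quantile normalization, all 8 libraries in 1 fit, no variance trend, voom on recovered reads, a replicate block and each library left out. The fit was first run on simulated data with the same spread in all groups. That simulation could not test the unequal spread of these data, in which the Ctrl CLT libraries differed most.

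The members and the gene lists were chosen with earlier results of these data known. Genes named are the 8 members, *Med1*, the pathway genes past the threshold (at most 4 per list by size), otherwise the smallest p of each list, and the 3 genes most like each member. *Col3a1*, *Mgp* in the interaction, *Entpd3* and *Enpp3* in CLT, *Vdr* and *Galnt3* between regions in cKO and the marker genes were named after their values were seen. The replicate number was not taken to pair the libraries, as the labels do not say that a number marks a litter and there are only 2 pairs. The deviations of same-numbered libraries correlated at 0.066 between genotypes in CLH and -0.192 in CLT, and at 0.195 between regions in Ctrl and 0.307 in cKO, so a shared litter was not settled. Sequences are from RefSeq (GRCm38.p6), exon overlaps from GENCODE M21. Python 3.11.15, pandas 2.3.3, numpy 2.4.6 and matplotlib 3.10.9 were used.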

Additional observations from a re-analysis of the deposited data

Results flagged for a closer look

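The cKO effect differed between CLT and CLH for 4 of the 8 genes, by the interaction term of the limma fit. Of all genes 17.6 percent passed, and 9.58 percent passed as lower in CLT relative to CLH. The difference of log2 fold changes (CLT minus CLH) was -6.90 for *Alpl*, -4.17 for *Phex*, -1.99 for *Slc20a2* and -1.0 for *Slc20a1*, with adjusted p from 0.000155 to 0.0161. For *Alpl*, *Slc20a2* and *Slc20a1* both cKO libraries were above both Ctrl libraries in CLH and below both in CLT. In CLH 19.9 percent of all genes were above in this way and none of the members passed. In CLT 35.1 percent of all genes were below. As given above, the calls for *Slc20a1* and *Slc20a2* depended on which libraries were in the fit.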

How the results depend on the processing

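In CLT, where 2 of the 8 genes passed, 0 passed with no filter on low values, 5 with all 8 libraries in 1 fit, 1 with voom and 1 to 7 with a library left out (7 without Ctrl CLT 1, 6 without Ctrl CLT 2, 1 without either cKO CLT library). With a replicate block 3 passed, *Slc20a2* added, while the genes called over the whole table went from 248 to 1744. Under the crossed pairing of numbers, chosen after seeing the data, 1 of the 8 and 9 of all genes passed. The calls over all genes were 3 with no filter, 18 with voom, 6183 with 1 fit, 9838 without Ctrl CLT 1, 7369 without Ctrl CLT 2 and 11 without either cKO CLT library. *Alpl* kept its direction in every alternative, at -7.31 to -6.71 and -6.97 to -6.49 with a library left out, and lost its call only with no filter (adjusted p = 0.078, limma). *Phex* lost its call with no filter, voom, the crossed pairing and without either cKO CLT library.

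In CLH 0 passed under each alternative, the replicate block among them. Between regions in Ctrl, where 0 members and 1 of all genes passed, 2 members passed with all 8 libraries in 1 fit, as did 837 of the 14148 genes. The calls also changed with a library left out, for the members and for all genes, as given above. In cKO, where 6 passed, 5 to 7 passed, and 7 with the replicate block. Of all genes, 7660 (all 8 libraries in 1 fit) to 11441 (replicate block) passed there. For the interaction, where 4 members and 2494 of all genes passed, 4 members passed in each alternative that kept all libraries, and 1448 to 2590 of all genes. With a library left out the calls changed, for the members and for all genes. The differences then ranged from -7.14 to -6.66 for *Alpl*, -4.66 to -3.68 for *Phex*, -2.36 to -1.62 for *Slc20a2* and -1.07 to -0.93 for *Slc20a1*.

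Directions turned mostly when a library was left out. In CLT *Phospho1* ranged from -0.34 to 0.16 and *Ank* from -0.07 to 0.53. In CLH *Phospho1* ranged from -0.03 to 0.09 and *Phex* from -0.13 to 0.35. Between regions in Ctrl *Phospho1* ranged from -0.33 to 0.17, *Enpp1* from -0.42 to 0.44, *Phex* from -0.22 to 0.76 and *Sparc* from -0.10 to 0.04, and *Sparc* was at 0.15 with median-of-ratios scaling and 0.13 with quantile normalization. In the interaction *Phospho1* ranged from -0.38 to 0.12. *Phospho1* had no value under the filter on the mean. Where a fit leaves a group with 1 library, that library is assumed to vary like the other group.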
